A study of Mus musculus with 30 samples.

Results

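The 86 cytosolic ribosomal protein genes described here were chosen from the 55401 genes of the count table by symbol. A gene was taken if it is protein coding and its symbol is Rpl or Rps followed by a digit, or Rplp0, Rplp1, Rplp2 or Rpsa, and pseudogenes and the S6 kinases were dropped. By textbook role, 31 of the 86 encode proteins of the small (40S) subunit, 46 encode proteins of the large (60S) subunit and 8 are paralogs. The last one, Rps19bp1, encodes a protein that binds Rps19 and is no part of the ribosome, and it entered by its symbol alone. The rule used no measured value.

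The cells are mouse B-cell lymphoma cells, named Eµ-Myc; p19ARF -/-, in which a Myc transgene is driven by the immunoglobulin heavy chain enhancer and Arf, a tumor suppressor that activates p53, is deleted. All 30 libraries share both alterations. The 12 DMSO control lines went through repeated cycles of the solvent, and the 17 paclitaxel resistant lines through repeated cycles of paclitaxel, a drug that stabilizes microtubules, with drug-free recovery between cycles. Each line grew from its own well of a plate, every line descends from the same starting lymphoma, and 1 library comes from the parental cells. The libraries count tags from the 3′ ends of mRNAs, and the total ranged from 480919 to 6739131 counts per library.

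Ribosomal proteins are made in step with ribosomal RNA, and one copy of nearly every protein is built into each subunit in the nucleolus. Myc is known to raise transcription of these genes. Their mRNAs begin with a run of pyrimidines, the terminal oligopyrimidine (TOP) tract, through which mTORC1 and Larp1 control their translation. Free Rpl5, Rpl11 and Rpl23 can bind Mdm2 and stabilize p53, so the family is also known as a sensor of ribosome assembly.

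RefSeq promoters (GRCm38.p6) were matched for 66 of the 86 genes, and the stretch from 60 bases before to 20 bases after the RefSeq start is shown. RefSeq starts can differ from the gene coordinates given below, and the Rpl27 stretch ends before those begin. Whether a stretch holds the TOP tract was therefore not tested. The genes printed are the 3 that passed the test between treatments and 2 that came close to it, Rpl18 and Rps27l, which were chosen after their values were seen. Capitals mark the longest run of C and T on the strand of the gene, the first one where 2 runs tie, as they do for Rps27l at 9 bases each.
Rpl27: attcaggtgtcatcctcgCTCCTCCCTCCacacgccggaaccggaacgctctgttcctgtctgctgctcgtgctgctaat
Rps25: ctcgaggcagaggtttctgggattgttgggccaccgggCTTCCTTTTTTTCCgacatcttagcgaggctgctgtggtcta
Rps19: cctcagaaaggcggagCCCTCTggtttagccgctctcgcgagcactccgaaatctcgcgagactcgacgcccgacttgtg
Rpl18: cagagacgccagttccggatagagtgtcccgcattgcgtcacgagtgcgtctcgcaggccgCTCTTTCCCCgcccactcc
Rps27l: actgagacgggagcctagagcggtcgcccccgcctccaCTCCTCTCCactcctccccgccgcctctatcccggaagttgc
They lie on the plus strand, at chr11:101442185-101442264 for Rpl27, chr9:44407654-44407733 for Rps25, chr7:24884532-24884611 for Rps19, chr7:45718011-45718090 for Rpl18 and chr9:66946026-66946105 for Rps27l. A run of at least 8 pyrimidines was held by 37 of the 66 matched genes (56.1%) in this stretch, against 31.1% of all 27025 promoters. Of the 5 printed, the run of Rps25 was the longest, at 14 bases, and that of Rps19 was the shortest, at 6. The marked runs began at base -42 in Rpl27, -22 in Rps25, -44 in Rps19 and -22 in Rps27l, and at base 2 in Rpl18. Positions count from the RefSeq start, and the runs were not read as TOP tracts. The letters CTTTCC, a pyrimidine core that can itself lie in such a run, were found on either strand in 33 of the 66 genes (50%) and 26.3% of all promoters, counting all 300 bases from 250 before to 50 after the start. The letters CCGGAAG, the core bound by ETS factors, were found on either strand in 25 of the 66 (37.9%) and 9.12% of all. These matches are descriptions of the sequence only.

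Some libraries stood apart and are named here because results rest on them. Abcb1b, the drug efflux pump, was at 70.3 CPM in the library labelled DMSO 12 and at most at 45.8 CPM in the other 11 DMSO control libraries. In the library labelled Pac H9 it was at 26.3 CPM, against 42.2 to 258 CPM in the other 16 paclitaxel resistant libraries and 29.8 CPM in the parental library. CPM are counts per unit of library size in the usual scale, adjusted by edgeR's TMM factors throughout. These 2 libraries therefore went against their labels. Whether the labels from DMSO 12 on were moved along by 1 library was not tested here, and if they were, the values given for DMSO 12, for a named Pac line or for the parental library could be those of another line. Line names are those of the labels throughout. In addition, 6 paclitaxel resistant libraries (Pac G9, F10, D7, D4, C11 and A6) had TMM factors of 1.09 to 1.26, while no DMSO control library was above 1.02. B-cell markers were present, with 12 of 12 detected in at least 1 library and 9 in every library. Their summed level was 5371 to 9488 CPM in the controls and 3845 to 10467 CPM in the resistant lines. Single B-cell markers differed more, with log2 fold changes from -1.84 to 1.37 over the 11 tested. Summed T-cell, myeloid, erythroid and fibroblast or endothelial markers were at most 24.3, 51.1, 251 and 86.0 CPM in any resistant line and at most 13.3, 28.1, 72.5 and 77.5 CPM in any control, with Cd3e, Cd4, Elane, Col3a1 and Dcn at 0 everywhere.

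The members differed widely in how many tags the table assigns to them. Among the most abundant, means over the 29 treated and control lines were 14061 CPM for Rps14, 12070.4 CPM for Rpl4, 10425 CPM for Rplp0 and 9811 CPM for Rps3. Rps3 lies in the mRNA-binding region of the 40S subunit, Rpl4 lines the 60S exit tunnel and Rplp0 is the base of the 60S stalk. At the other end Rpl5 was at 3.64, Rps10 at 3.90, Rps6 at 6.68, Rpl3l at 6.80 and Rpl10 at 9.64 CPM. A tag library counts one end per mRNA, so no length scaling applies, but levels of different members were not read as mRNA abundance. Ribosomal proteins of one subunit are made in equal number, whereas these levels spanned more than 3 orders of magnitude.

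Many ribosomal protein genes have near-identical processed pseudogenes, and a tag that fits several places is not assigned to one gene by STAR's gene counts. As a measure of this, every 50-base window in the last 400 bases of each member's annotated transcripts was looked up, and the share found exactly in another annotated gene was taken. That share was 0% for Rpl4 and 2.54% for Rps3, but 92.3% for Rpl10, 88.0% for Rps6, 86.6% for Rpl24 and 100% for Rpl36a. Of the 21 members with under 20% shared windows, 12 reached 1000 CPM, and of the 15 members at 80% or more none did, their highest being Rps27rt at 825 CPM. Rpl5 and Rps10 were low at 50% and 49.0% shared. Across the 86 genes, which are not independent replicates, Spearman's rho between the share and the mean level was -0.30, given as a description only.

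**Figure D1:**
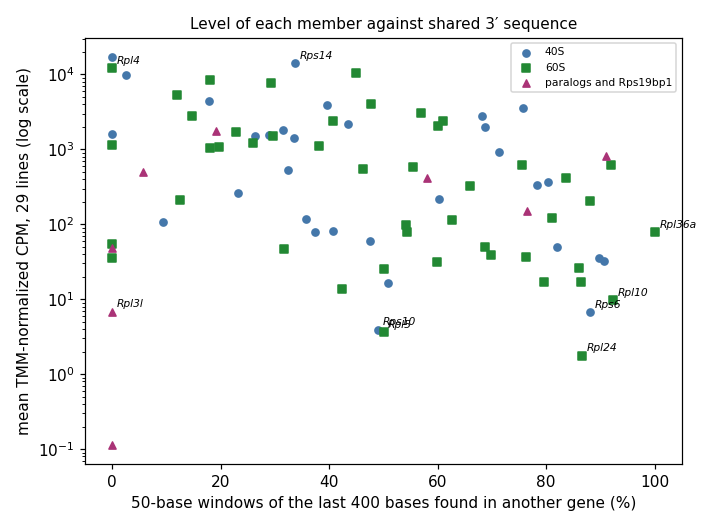
Mean TMM-normalized CPM over 29 lines (vertical, log scale) against the percentage of 50-base windows at the 3′ end found in another annotated gene (horizontal), 1 point for each member with any count in these lines. No member at 80% or more reaches 1000 CPM, while Rpl4 (12070.4 CPM) has no shared window.

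Of the 86 members, 83 had enough counts to be tested. Rpl39l, a paralog of Rpl39 expressed in testis, had no count in any library, which allows up to 0.0284 CPM (3 counts of the 105450796 in all libraries). Rpl10l, a testis paralog of Rpl10, had 15 counts over 10 libraries, and Rpl24, a 60S protein, had 195 counts over 27 libraries and a mean of 1.75 CPM. Intervals and limits cover counting error only.

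The comparison of paclitaxel resistant with DMSO control lines asks which of these mRNAs differed after selection by the drug. At an adjusted p under 0.01 (edgeR's quasi-likelihood test, Benjamini-Hochberg over 9445 genes) 3 of the 83 tested members passed, against 2.2% of all tested genes. Lower in the resistant lines were 2 members, Rpl27 and Rps25 (background 1.21%), and higher was 1, Rps19 (background 0.995%). With counts this small, the members' share did not stand out from the background.

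Rpl27, a protein of the 60S subunit (ENSMUSG00000063316.13, chr11:101442298-101445529 of GRCm38, plus strand), ranged from 34.3 CPM in DMSO 11 through a median of 48.0 to 65.4 CPM in DMSO 10. In the resistant lines it ranged from 20.4 CPM in Pac D7 through a median of 28.3 to 58.5 CPM in Pac C1, and the parental library stood at 49.5 CPM. Of the 17 resistant lines, 14 lay below the lowest control, while Pac B2, Pac C1 and Pac E1 overlapped the controls at 39.9, 58.5 and 52.6 CPM. The log2 fold change was -0.72 ± 0.15 (SE, 12 against 17 lines, adjusted p = 0.00281, edgeR). Rpl27 is a low-count member, with 4077 counts over 30 libraries, and 69.8% of its 3′ windows also occur in 11 pseudogenes. Rpl27-ps3, a pseudogene named for it, was at a median of 43.4 CPM in controls and 49.2 CPM in resistant lines (log2 fold change 0.04 ± 0.12, adjusted p = 0.848, edgeR).

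Rps25, a 40S protein next to the tRNA exit site that some viral RNAs need to recruit the ribosome (ENSMUSG00000009927.9, chr9:44407139-44410427, plus strand), ranged from 518 CPM in DMSO 7 through a median of 653 to 969 CPM in DMSO 8. The resistant lines ranged from 179 CPM in Pac A6 through a median of 455 to 557 CPM in Pac H4, and the parental library stood at 690 CPM. No resistant line reached the control median and 13 of 17 were below the lowest control. The log2 fold change was -0.73 ± 0.16 (adjusted p = 0.00455, edgeR). Within the resistant lines, the 6 with high TMM factors held the 5 lowest values, from 179 CPM in Pac A6 to 289.0 CPM in Pac C11, with Pac D7 at 446 CPM, while the other 11 ranged from 435 to 557 CPM. Trappc4 and Ccdc84 overlap Rps25 on the opposite strand, and whether counting used strand is not stated in the sources used here.

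Rps19, a 40S protein needed for maturation of small-subunit RNA and the gene most often mutated in Diamond-Blackfan anemia (ENSMUSG00000040952.16, chr7:24884371-24889806, plus strand), moved the other way. It ranged from 2323 CPM in DMSO 4 through a median of 3047 to 4157 CPM in DMSO 6, and from 2582 CPM in Pac D4 through a median of 4642 to 5931 CPM in Pac D7. The parental library was at 2995 CPM. Of the 17 resistant lines, 12 lay above every control, whereas Pac C1 and Pac D4 were below the control median at 2817 and 2582 CPM and Pac A6 was just under it at 3024 CPM. The log2 fold change was 0.60 ± 0.13 (adjusted p = 0.00403, edgeR). Rps19 shares 39.6% of its 3′ windows with 15 pseudogenes. The one with the most counts among those named Rps19-ps, Rps19-ps6, had a median of 61.6 CPM in controls and 88.6 CPM in resistant lines (log2 fold change 0.44 ± 0.14, adjusted p = 0.0566), and Rps19-ps4 had 8.73 and 14.8 CPM (0.72 ± 0.19, adjusted p = 0.0175, edgeR). Tags of the gene and of such copies cannot be told apart where their sequence is identical.

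Without the libraries labelled DMSO 12 and Pac H9 the log2 fold changes were -0.73 for Rpl27, -0.75 for Rps25 and 0.59 for Rps19, and all 3 still passed. Without the 6 libraries of high TMM factor, Rps25 was at -0.47 (adjusted p = 0.0078) and Rps19 at 0.64 and passed, and Rpl27 was at -0.56 and did not pass (adjusted p = 0.0251, edgeR). With all libraries thinned to 480919 counts none of the 3 passed, at -0.44 for Rpl27 (adjusted p = 0.821), -0.66 for Rps25 (adjusted p = 0.0314) and 0.63 for Rps19 (adjusted p = 0.0113, edgeR). Rps19 also did not pass without a filter on low counts (0.58, adjusted p = 0.0141) or with the 23 deepest libraries alone (0.58, adjusted p = 0.0145, edgeR). Leaving out 1 library at a time, Rpl27 passed in 29 of 29 fits, Rps25 in 25 and Rps19 in 26. Rps25 did not pass without DMSO 3, DMSO 6, DMSO 8 or DMSO 10, and Rps19 did not pass without DMSO 2, DMSO 4 or DMSO 10, the highest adjusted p being 0.0141 and 0.0125.

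**Figure D2:**
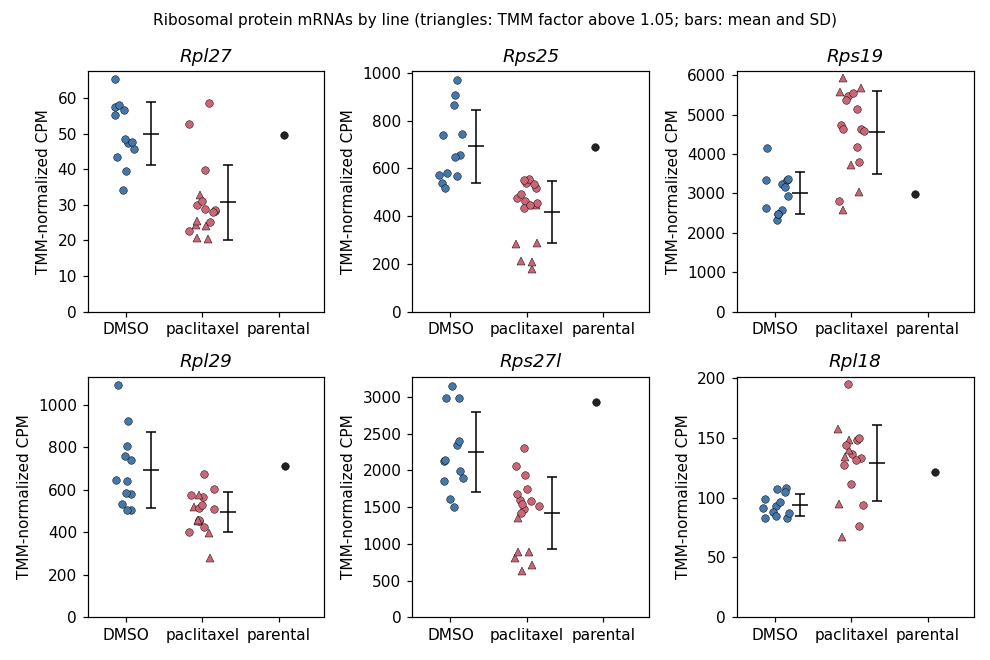
TMM-normalized CPM (vertical) of 6 members in each DMSO control (12), paclitaxel resistant (17) and parental (1) library, with triangles for the 6 resistant libraries of high TMM factor and bars for mean and SD. Most resistant lines lie below the controls for Rpl27 (14 of 17) and Rps25 (13 of 17) and above them for Rps19 (12 of 17), and the 5 lowest Rps25 values are triangles.

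The next members by p came close to the threshold without passing it. Rpl29, a small 60S protein, had a median of 644 CPM in controls (503 to 1091) and 508 CPM in resistant lines (277 to 674), at -0.49 ± 0.12 (adjusted p = 0.0141, edgeR). Rps27l, a paralog of Rps27 that p53 induces, had medians of 2133 CPM (1501 to 3151) and 1511 CPM (625 to 2298), at -0.66 ± 0.17 (adjusted p = 0.0146, edgeR). The 6 lowest Rps27l values of the resistant lines were those of the libraries of high TMM factor, since these 6 ranged from 625 to 1359 CPM and the other 11 resistant lines from 1417 to 2298 CPM. Without these 6 libraries its log2 fold change was -0.38 (adjusted p = 0.0483, edgeR). Rpl18, a 60S protein, had medians of 92.2 CPM (82.9 to 108) and 134 CPM (66.7 to 195), with 13 of 17 resistant lines above every control and 2 below every control, at 0.46 ± 0.12 (adjusted p = 0.0193, edgeR). Without the 6 libraries of high TMM factor Rpl18 was at 0.51 and passed (adjusted p = 0.00798, edgeR), and it also passed with total counts alone (adjusted p = 0.00354, edgeR). Sphk2 overlaps Rpl18 on the opposite strand. Rpl41, the shortest ribosomal protein, was at -0.37 ± 0.12 (adjusted p = 0.0454, edgeR), and at -0.23 without the 6 libraries (adjusted p = 0.138, edgeR). By DESeq2, Rpl29, Rps27l and Rpl18 all passed, with adjusted p-values of 0.00412, 0.00509 and 0.00425. At an adjusted p under 0.05, 8 of 83 members passed, against 7.56% of all genes tested, 5 of them lower (background 3.63%) and 3 higher (3.93%).

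Most of the remaining members had small fold changes below 0. Of the 83 tested, 62 had a log2 fold change below 0, against 43.4% of all tested genes, and 77 were within 0.5 of 0 on the log2 scale. The median over the members was -0.15 and over all tested genes 0.07. The same held for 24 of 31 genes of the 40S subunit (median -0.20) and 34 of 45 of the 60S subunit (median -0.15). Abundant genes as a whole leaned the same way, with a median of -0.09 over the 1691 genes of at least 100 CPM, 62.3% of them below 0, and -0.11 over the 55 members of that level, 72.7% of them below 0. At an unadjusted p under 0.05 there were 23 members lower (27.7%, background 10.2%) and 4 higher (4.82%, background 14.9%).

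The count below 0 moved with scaling, for all genes as for the members. Scaled by total counts alone, 49 of 83 members (59.0%) and 32.7% of all genes were below 0, with medians of -0.04 and 0.19. Without the 6 libraries of high TMM factor 49 of 83 were below 0, against 51.2% of all genes, with a median of -0.05, and 10 members were lower and 11 higher at an unadjusted p under 0.05 (12.0% and 13.3%, against 11.8% and 12.7% of all genes). In that fit the log2 fold change of 64 of the 83 members moved by over 1.5 times or changed sign, so single values of members that did not pass depend on these libraries. Without DMSO 12 and Pac H9, 64 of 83 were below 0 and the median was -0.15.

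**Figure D3:**
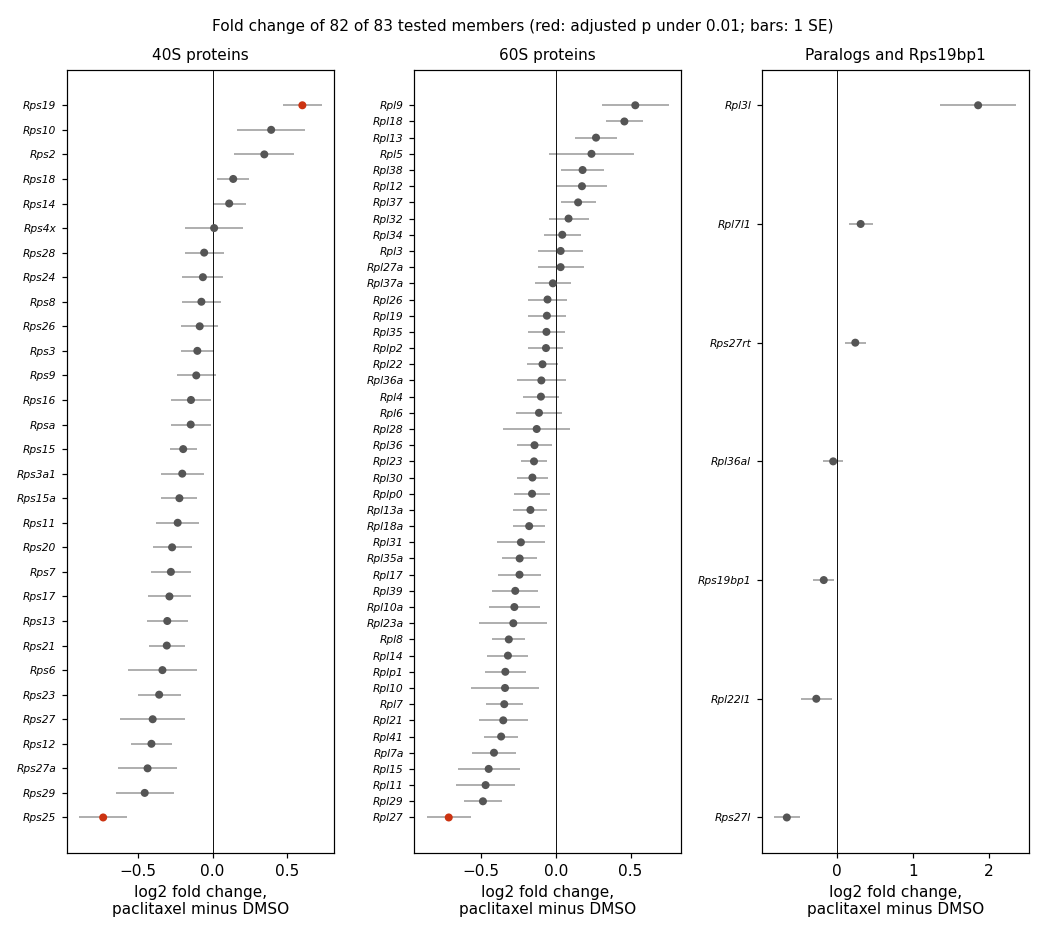
Log2 fold change (paclitaxel minus DMSO, horizontal) of 82 of the 83 tested members, 1 row per gene by subunit, with bars of 1 SE and red for an adjusted p under 0.01 in the edgeR test. Only Rps25 (-0.73), Rpl27 (-0.72) and Rps19 (0.60) are red, and 62 points lie left of 0.

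As a group, the 86 members held a similar part of the counts in both treatments. Their share was 14.5% ± 1.42 (SD, n = 12) in DMSO control and 14.8% ± 1.63 (SD, n = 17) in resistant libraries, so the difference of 0.31 percentage points was smaller than the spread. The lowest share was 11.5% in Pac D4 (exact Clopper-Pearson 95% interval 11.4 to 11.5) and the highest 18.2% in Pac D7 (18.1 to 18.2), and the parental library was at 13.04%. Pac D4 also had 11.9% of its counts on mitochondrial genes, against 1.34 to 12.4% over all libraries. The 5 most abundant members held 41.5% ± 1.16 of member counts in controls and 43.8% ± 2.66 in resistant lines.

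The ratio of 60S to 40S counts was 1.12 ± 0.09 (SD, n = 12) in controls, from 0.985 in DMSO 7 to 1.28 in DMSO 11, and 0.990 ± 0.09 (SD, n = 17) in resistant lines, from 0.806 in Pac A6 to 1.18 in Pac D4. The groups overlapped, the parental library stood at 1.17, and no test was made because this is a score over the members. Among the controls the ratio was 1.14 to 1.28 in DMSO 3, 4, 8, 10 and 11, whose chromosome 9 genes as a whole were higher than in the other controls, and 0.985 to 1.13 in the other 7. The abundant 60S members Rpl4, Rpl14 and Rplp1 and the less abundant Rpl29 lie on that chromosome. With the members on chromosome 9 left out, which was chosen after seeing the data, the ratio was 0.805 ± 0.036 in controls and 0.717 ± 0.073 in resistant lines, again with overlap. Genes of the 40S subunit held 6.68% ± 0.73 of counts in controls and 7.30% ± 0.86 in resistant lines, and those of the 60S subunit held 7.46% ± 0.78 and 7.20% ± 0.88. A few abundant genes weigh heavily in these sums. Rps14 had medians of 13373 and 13828 CPM (log2 fold change 0.11 ± 0.11, adjusted p = 0.551), and Rpl4 had 11992 and 11279 CPM (-0.10 ± 0.12, adjusted p = 0.628, edgeR). Neither of the 2 passed the test. Of the members that passed, Rps19 is also in the 40S sum, with medians of 3047 and 4642 CPM. Rps25, in the same sum, went the other way at 653 and 455 CPM, and Rpl27 adds little to the 60S sum at 48.0 and 28.3 CPM.

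**Figure D4:**
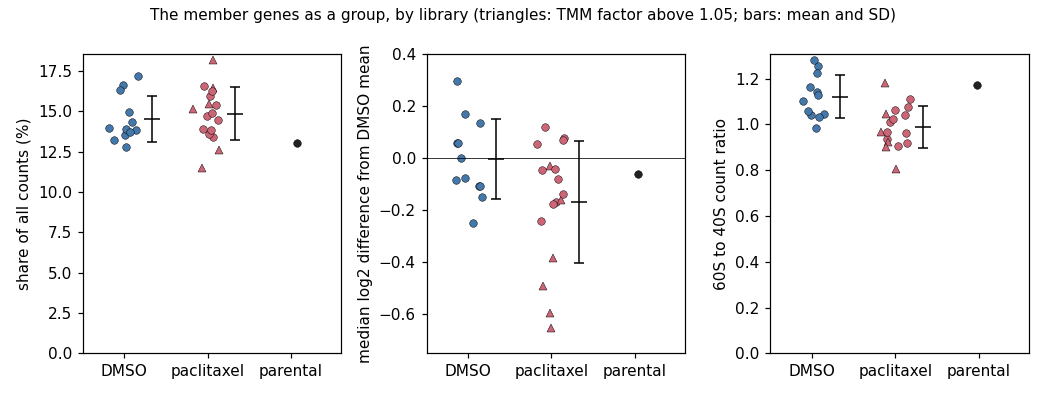
Share of counts of the 86 members (left, percent), median over the 83 tested members of the log2 difference from the DMSO mean (middle) and 60S to 40S count ratio (right), 1 point per library, with mean and SD beside each group and triangles for the 6 libraries of high TMM factor. Shares overlap (14.5% ± 1.42 and 14.8% ± 1.63), the 4 lowest medians are triangles, and the mean ratio is lower in resistant lines (0.990 ± 0.09) than in controls (1.12 ± 0.09) with overlap.

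Rps25, Rps27l and Rpl29, 3 of the 5 members with the lowest p, lie on chromosome 9, and the other genes of that chromosome also lay mostly below 0. Of the 516 tested chromosome 9 genes other than members, 353 (68.4%) had a fold change below 0, 21 passed the test as lower and none as higher, and their median was -0.16, against 0.07 over all tested genes. Among the 8 members there, 7 were below 0, Rps27rt, a retrogene copy of Rps27, being the exception at 0.24 ± 0.14 (adjusted p = 0.273, edgeR). In each library the median log2 difference of these 516 genes from the DMSO mean was taken, less that of all genes other than members. It was 0.20 in DMSO 3, 0.24 in DMSO 4, 0.25 in DMSO 8, 0.28 in DMSO 10 and 0.28 in DMSO 11, and 0.23 in the parental library. The control DMSO 6 was at -0.0022, and DMSO 1, DMSO 2, DMSO 5, DMSO 7, DMSO 9 and DMSO 12 were between -0.25 and -0.18. All 17 resistant lines were between -0.24 and -0.06, so the controls fell on both sides and the resistant lines on the low side alone.

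Rps25 followed this split among the controls. It was at 909, 744, 969, 738 and 658 CPM in DMSO 3, 4, 8, 10 and 11, and at 866 CPM in DMSO 6. In DMSO 1, 2, 5, 7, 9 and 12 it was at 579, 571, 539, 518, 569 and 649 CPM, all below the first 5. The resistant lines Pac C3, Pac E1, Pac H8 and Pac H4 overlapped the latter, at 536, 538, 551 and 557 CPM. Within the resistant lines Rps25 did not follow the chromosome. Pac F10, C11, A6 and G9, with the highest chromosome 9 medians (-0.06 to -0.15), were at 209, 289, 179 and 212 CPM. Pac E2, C1 and B2, with the lowest (-0.24 each), were at 474, 464 and 517 CPM. Rps27l split the controls less cleanly, with DMSO 5 at 2407 CPM above DMSO 3 (2339 CPM) and DMSO 11 (2141 CPM). The fit compares all 12 controls with all 17 resistant lines, and the part of the chromosome-wide difference in the fold changes of Rps25, Rps27l and Rpl29 was not tested. Rpl27 and Rps19 lie on chromosomes 11 and 7, whose tested genes had medians of 0.16 and 0.05.

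**Figure D5:**
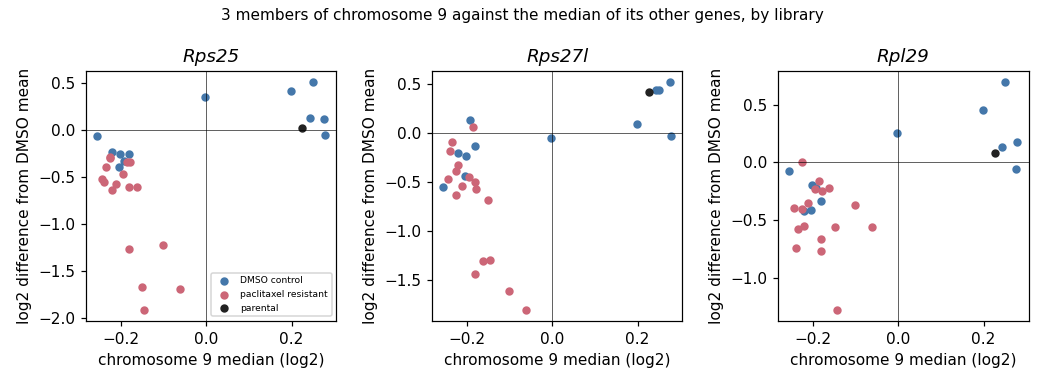
Log2 difference from the DMSO mean (vertical) of Rps25, Rps27l and Rpl29 against the median of the other chromosome 9 genes (horizontal, log2, relative to all genes), 1 point per library. The 5 controls DMSO 3, 4, 8, 10 and 11 and the parental library lie at 0.20 to 0.28, and the 17 resistant lines lie at -0.24 to -0.06, beside 6 controls.

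The paralogs were described beside their partners, since a paralog can take the partner's place in the ribosome. Rpl22l1 had medians of 477 CPM in controls and 407 CPM in resistant lines (-0.28 ± 0.20, adjusted p = 0.410) beside Rpl22 at 2703 and 2782 CPM (-0.09 ± 0.11, adjusted p = 0.626, edgeR). Among the controls Rpl22l1 ranged from 140.0 CPM in DMSO 12, one of the 2 libraries that went against their labels, to 804 CPM in DMSO 6, and the other 11 controls were at 288 CPM or above. Rpl3l, the form known from muscle, was near the limit of detection in controls, with a median of 2.15 CPM (0.698 to 7.95), and reached 35.8 CPM in Pac G9 around a resistant median of 5.41 CPM. Of the 17 resistant lines 7 lay above every control and 2 below every control, at 1.86 ± 0.51 (adjusted p = 0.0198, edgeR), which did not pass. Of these 7 lines 5 were libraries of high TMM factor, and without the 6 such libraries the log2 fold change was 1.06 (adjusted p = 0.176, edgeR). With all 29 libraries Rpl3l passed by DESeq2 (1.85, adjusted p = 0.00381) and by edgeR's likelihood ratio test (1.82, adjusted p = 0.00649). Its partner Rpl3 had medians of 408 and 423 CPM (0.03 ± 0.15, adjusted p = 0.916, edgeR).

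For Rps27, the partner of Rps27l, medians were 19.4 and 12.5 CPM (-0.40 ± 0.22, adjusted p = 0.248, edgeR). Rpl7l1, a Rpl7-like protein that acts in assembly of the large subunit, had medians of 424 and 581 CPM (0.31 ± 0.16, adjusted p = 0.213), and Rpl7 had 702 and 560 CPM (-0.35 ± 0.13, adjusted p = 0.0822, edgeR). The pair therefore had fold changes of opposite sign, neither past the threshold, and both values moved with the libraries used. Without the 6 libraries of high TMM factor Rpl7l1 was at 0.57 and passed (adjusted p = 0.00504) while Rpl7 was at -0.20 (adjusted p = 0.201, edgeR). With the 23 deepest libraries alone Rpl7l1 was at 0.13 (adjusted p = 0.619) and Rpl7 at -0.40 (adjusted p = 0.0723, edgeR). Rpl36al was at -0.05 ± 0.13 beside Rpl36a at -0.10 ± 0.16. Rpl10 was at -0.34 ± 0.23, Rpl39 at -0.27 ± 0.15 and Rps4x, the X-linked member of its pair, at 0.01 ± 0.19. Rps4l is annotated as a pseudogene and is no member.

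Rpl11, Rpl5 and Rpl23, the Mdm2 binders named above, gave no call, and other members were not sorted by Mdm2 binding. Rpl11 had medians of 32.0 CPM in controls and 27.3 CPM in resistant lines (-0.47 ± 0.20, adjusted p = 0.135, edgeR), with DMSO 9 alone at 107 CPM and the other controls at 21.7 to 43.9 CPM. Without DMSO 9 its log2 fold change was -0.23 (adjusted p = 0.395), and without the 6 libraries of high TMM factor it was -0.25 (adjusted p = 0.509, edgeR). Rpl5 was at 2.86 and 3.55 CPM (0.24 ± 0.29, adjusted p = 0.631) and Rpl23 at 1056 and 999 CPM (-0.15 ± 0.09, adjusted p = 0.312, edgeR). Members of the 60S stalk, which recruits translation factors, were at -0.16 ± 0.12 for Rplp0, -0.34 ± 0.14 for Rplp1 and -0.07 ± 0.12 for Rplp2, none past the threshold. Rps6, the substrate of S6 kinase, was at -0.34 ± 0.23 from a mean of 6.68 CPM, and Rpsa, also known as a laminin receptor precursor, at -0.15 ± 0.13. Rpl9 had the highest fold change among the 60S genes, 0.53 ± 0.23 (adjusted p = 0.142, edgeR), with resistant lines spread from 27.1 CPM in Pac F10 to 209 CPM in Pac C3 and controls at 43.2 to 96.7 CPM.

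Lines differed from each other less for the median member than for the median tested gene. The SD over lines of log2(CPM + 2) had a median of 0.26 over the 83 members in controls and 0.39 in resistant lines, against 0.41 and 0.60 over all 9445 tested genes. Among genes of at least 100 CPM the medians were 0.24 and 0.38 for 55 members and 0.28 and 0.48 for all 1691. The resistant lines were the more variable group for 71 of 83 members (85.5%), and for 88.1% of all tested genes. Among controls the SD was largest for Rpl22l1 (0.64), Rpl11 (0.58), Rpl3l (0.56) and Rps4x (0.50). This order rested on single controls. The SD of Rpl22l1 was 0.42 without DMSO 12, that of Rpl11 was 0.29 and that of Rpl3l 0.44 without DMSO 9, and that of Rps4x was 0.37 without DMSO 6. Rps4x reached 1925 CPM in DMSO 6 around a median of 818 CPM.

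Other genes of the translation machinery were taken from lists written from general knowledge. Among further proteins of the cytosolic ribosome, Fau, which encodes Rps30 fused to a ubiquitin-like protein, had medians of 62.2 and 39.0 CPM (-0.53 ± 0.16, adjusted p = 0.0363, edgeR). Rack1, a scaffold on the 40S subunit, had 4727 and 4833 CPM (0.00 ± 0.09). Neither passed at 0.01. Of 29 other mRNAs known or thought to carry a TOP tract, 19 were below 0 with a median of -0.14 and none passed, Eef1a1, which delivers tRNA to the ribosome, being at -0.41 ± 0.13 (adjusted p = 0.0408, edgeR). Of 13 tested regulators of these mRNAs none passed, and Larp1 was at 0.68 ± 0.32 (adjusted p = 0.174, edgeR). None of the 7 tested genes of the p53 arm passed. The 76 tested mitochondrial ribosomal protein genes, which build a separate ribosome, had a median of -0.10 with 51 below 0 and none past the threshold. The 74 tested pseudogenes of cytosolic ribosomal proteins had a median of 0.11, against 0.07 over all tested genes, and 2 of the 74 passed as higher (background 0.995%), Rpl28-ps1 (0.54 ± 0.11, adjusted p = 0.00335) and Rpl36-ps2 (0.51 ± 0.11, adjusted p = 0.00408, edgeR). Their named partners Rpl28 and Rpl36 were at -0.13 ± 0.23 and -0.14 ± 0.12.

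The parental library lay within the range of the 12 controls for 72 of the 83 tested members (86.7%), and for 78.3% of all tested genes. It lay above the controls for Rpl13a and Rpl18 and below them for 9 members. No test of the single parental library was made, and these values rest on its label.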

How the data were processed

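3′-end digital gene expression libraries with a barcode and a random molecular identifier per cDNA were made by the authors from 12 DMSO control, 17 paclitaxel resistant and 1 parental library. The deposited values are raw counts per gene: single-end reads were mapped by the authors with STAR 2.5.1b to GRCm38 (mm10), followed by STAR's gene counts. Collapsing of identifiers is not given in the sources used here, so counts may hold PCR copies. Groups came from the treatment in the labels, because the labels do not give the phenotype groups. The 2 pools in which libraries were made are not given per line, so pool was not modelled. Lines are separate cultures of one lymphoma, and p-values measure the spread between them.

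Gene symbols, biotypes and coordinates came from GENCODE M21 (GRCm38), which matched 55141 of 55401 identifiers. Members were the protein-coding genes fitting the symbol rule, and they and all lists were chosen with earlier results of these data known. The main test was edgeR 4.0.16 (R 4.3.3): filterByExpr, TMM factors, glmQLFit and glmQLFTest on 12 against 17 libraries, Benjamini-Hochberg over all tested genes, threshold 0.01; SE is the absolute log2 fold change over the square root of F. CPM used TMM factors of all 30 libraries, and 2 was added before logs. Genes named were all past the threshold, the lowest 5 p values, the 4 highest and 4 lowest fold changes, the 5 most and 5 least abundant, the 4 most variable in controls, paralog pairs and a fixed set by role. From the other lists, genes past the threshold were named, at most 3 per list, with Fau, Rack1 and Larp1. Eef1a1, Rpl41, Rpl28, Rpl36, Rps27rt, Rpl14, the Rps19 and Rpl27 pseudogenes and the chromosome 9 genes were named after their values were seen. Alternatives were the likelihood ratio test, DESeq2 1.42.0, RLE factors, TMM without ribosomal genes, 2 other filters, thinning to 480919 counts, total counts as a covariate or alone, 4 other sets of libraries and each library left out. The code was tested on simulated data. No column was left unmapped. Smaller libraries give wider errors, and intervals cover counting error only. Some genes that the naming rule takes are not reported here.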

Additional observations from a re-analysis of the deposited data

Results flagged for a closer look

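Rpl18 was flagged because the parental library, which entered no comparison, stood at 121 CPM, above the 82.9 to 108 CPM of the 12 DMSO control libraries. The resistant lines had a median of 134 CPM. The difference was not tested, and it rests on the label of 1 library. Groups of more than 10 libraries were not screened for single libraries that stand apart.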

How the results depend on the processing

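No paired analysis was possible because resistant lines are named by plate well and the labels' numbers do not tie a control to a resistant line. Against 1 member higher and 2 lower among 208 genes called, the likelihood ratio test gave 2 and 4 of 448, DESeq2 3 and 4 of 571, an adjusted p under 0.05 3 and 5 of 714, total counts alone 2 and 2 of 279, and the fit without the 6 libraries of high TMM factor 3 and 1 of 231 (the last 2 were chosen after seeing the data). No member was higher (0) without a filter on low counts or with only the 23 deepest libraries by edgeR, each with 2 lower, of 281 and 207 genes called, and with 4 and 5 members higher at an unadjusted p under 0.05 (4.71% and 6.02%, against 11.7% and 18.8% of all genes). With all libraries thinned to 480919 counts there were 0 and 0 calls by edgeR, with 11 calls over all genes and 8 members lower and 4 higher at an unadjusted p under 0.05 (10.7% and 5.33%, against 4.46% and 5.66% of all genes), and it raised the median SD of members in controls from 0.26 to 0.45. Fewer genes (5425) could be tested there. Leaving out 1 library at a time, also chosen after seeing the data, gave 0 to 2 higher and 1 to 3 lower. RLE factors, TMM without ribosomal genes, at least 1 CPM in 12 libraries, total counts as a covariate, leaving out DMSO 12 and Pac H9, and adding the parental library left 1 higher and 2 lower.

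Over all members, 16 fold changes changed sign when thinned, 13 with total counts alone and 19 without the 6 libraries of high TMM factor, and none of these (0) had passed by edgeR. Those of members named with a fold change are given here. Thinned, they were 0.041 for Rpl22, -0.037 for Rpl3, 0.16 for Rpl36, 0.27 for Rpl36al, 0.016 for Rplp2, 0.017 for Rps3 and 0.23 for Rpsa. With total counts alone they were 0.014 for Rpl22, 0.040 for Rpl36al, 0.0090 for Rpl4, 0.033 for Rplp2 and 0.0010 for Rps3. Without the 6 libraries of high TMM factor they were 0.078 for Rpl28, 0.16 for Rpl36a, 0.16 for Rpl36al and 0.043 for Rplp2. With total counts as a covariate they were -0.044 for Rpl3 and -0.067 for Rps4x, with deep libraries only -0.12 and -0.046, and without DMSO 12 and Pac H9 -0.027 and -0.083. Rps4x was at -0.0073 without a filter and -0.0022 with the parental library added. The median over members ranged from -0.18 without a filter to -0.04 with total counts alone. The difference in share was taken under only 4 of the alternatives, and it stayed below the spread between controls in these. The causes were not tested.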
